A study of Mus musculus with 23 samples.

Results

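The subunits of the mitochondrial respiratory chain and ATP synthase were followed through mouse myogenic progenitors kept in culture and through donor-derived satellite cells recovered after transplantation. Members were taken by gene symbol, without reference to their values: symbols beginning Nduf followed by a, b, c, s or v and a number, symbols beginning Uqcr, Cox4 to Cox8 or Atp5, and the protein-coding genes of the mitochondrial genome. The rule found 95 of the 21264 genes of the expression table, of which 82 are nuclear and 13 mitochondrially encoded. The nuclear members comprise 37 genes of complex I, 8 of complex III, 20 of complex IV, with Ndufa4 and Ndufa4l2 placed there, and 17 of complex V. The mitochondrially encoded members comprise 7 of complex I, 1 of complex III, 3 of complex IV and 2 of complex V. The nuclear subunits of complex II, the assembly factors and the mitochondrial ribosome are not members and are given for comparison.

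All 23 libraries derive from iPax3 cells, mouse embryonic stem cell derivatives that carry an inducible Pax3 transgene, so the controls carry that transgene as well. In culture, 4 libraries of control progenitors stood beside 3 of N1OE progenitors, made to overexpress NICD1, the part of Notch1 that is released into the cell when the receptor signals. After transplantation and re-isolation, 9 control libraries stood beside 4 N1OE libraries and 3 N1KO libraries, in which Notch1 was knocked out. The promoter that drives NICD1, the number of clones per line, the host, the time after transplantation and any pooling of animals are not given in the sources used here, and no label says whether replicates are separate cultures or animals; the spread behind the p-values is that between these libraries and may be technical. RNA of cultured cells came from a Trizol extraction and went into stranded TruSeq mRNA libraries, while the low-input RNA of re-isolated cells, taken up in Buffer RLT, was amplified as cDNA and went into Nextera XT libraries, so setting and kit cannot be told apart.

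The libraries held 11637817 to 29154176 reads in listed genes. Levels are given as CPM, read counts scaled to the library total, in which 1 read was worth 0.0343 to 0.0859 CPM. Notch1 stood at 61.3 to 105 CPM in control progenitors and 297 to 370 CPM in N1OE progenitors; after re-isolation it stood at 14.9 to 174 CPM in control, 98.1 to 257 CPM in N1OE and 15.6 to 52.6 CPM in N1KO libraries. The re-isolated controls fell into sets by their column headers: replicates 1, 4, 7, 8 and 9 carry the suffix GoF, which the labels do not explain, and held 14.9 to 88.9 CPM of Notch1, whereas the unmarked replicates 2, 3, 5 and 6 held 136 to 174 CPM. The suffix also stands on all 4 cultured controls and on cultured N1OE replicate 1, and on no re-isolated N1OE or N1KO library. In culture it thus goes with genotype in part, since N1OE replicates 2 and 3 lack it. In each comparison with marked controls it goes with genotype throughout and cannot be told apart from it. The re-isolated libraries also fell into 2 kinds by their low counts. The number of genes with 1 read over that with 2 reads was 4.17 to 6.82 in marked controls and N1OE and 1.08 to 1.502 in unmarked controls and N1KO, so comparisons within a kind are those of N1OE with marked and of N1KO with unmarked controls. The N1KO libraries overlapped the GoF-marked controls in Notch1, and every comparison with re-isolated controls is given against all 9 and against each set. In bulk libraries, fewer cells of a type and less RNA per cell cannot be told apart.

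The respiratory chain passes electrons from NADH and succinate through complexes I, II, III and IV to oxygen and pumps protons, which complex V uses to make ATP. Complexes I, III, IV and V are each built from subunits of both genomes, and the mitochondrial genes encode hydrophobic core subunits that are transcribed as long polycistronic RNAs and cut apart. In skeletal muscle these complexes are abundant, and some complex IV subunits switch from general to muscle isoforms as fibres form.

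The first sequences bear on how the mitochondrial rows can be read. The mouse nuclear genome holds copies of mitochondrial genes, and 5 of the 13 mitochondrially encoded members have a copy on chromosome 1 that matches at 99.7% or more over at least 98% of the gene: mt-Co2, mt-Co3, mt-Atp6, mt-Nd3 and mt-Nd4l. The opening 90 bases of mt-Co2 at chrM:7013-7102 (plus strand) and of its copy Gm28661 at chr1:24615476-24615565 (minus strand), both read from transcripts of the GRCm38 build, show the extreme case. Below them stand the opening 90 bases of mt-Cytb at chrM:14145-14234 (plus strand) and of its nearest copy, Gm11410 at chr4:80003989-80004078 (plus strand), where capitals mark the 6 bases that differ.
mt-Co2: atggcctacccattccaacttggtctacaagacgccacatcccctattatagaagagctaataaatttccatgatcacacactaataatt
Gm28661: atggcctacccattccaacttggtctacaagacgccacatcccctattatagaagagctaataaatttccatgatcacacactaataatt
mt-Cytb: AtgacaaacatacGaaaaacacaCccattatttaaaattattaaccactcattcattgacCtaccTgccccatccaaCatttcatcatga
Gm11410: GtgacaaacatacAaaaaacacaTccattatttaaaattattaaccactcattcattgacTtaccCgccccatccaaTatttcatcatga
The mt-Co2 pair did not differ at any of the 90 bases, so a read from this stretch has more than 1 equally good origin. The 5 members with such copies summed to 34.5 ± 5.28 CPM (SD, n = 4) in cultured controls and 66.5 ± 53.5 CPM (SD, n = 9) in re-isolated controls, far below their neighbours on the same polycistronic RNA, and their values are uncertain. No copy of sufficient length was found for mt-Atp8, which was also low, at 0.238 to 0.589 CPM in cultured controls. It shares 43 bases with mt-Atp6, and these lie within the 678 bases of mt-Atp6 that the copy Gm10925 matches at 100%. The search covered annotated transcripts only and dropped matches over a small part of a gene, so copies outside those limits would be missed. The copies of mt-Co2 and mt-Atp6 lie at chr1:24614885-24615565 and chr1:24613974-24614651, and sequence between them outside annotated transcripts was not searched. Whether the rest of mt-Atp8 has a copy there is thus not known. Of the members read in most depth, mt-Nd4 has a copy identical over 876 of its bases and mt-Co1 one of 99.8% over 483, while the copies of mt-Cytb, mt-Nd2, mt-Nd5 and mt-Nd6 match at 92.9% to 96.7% and none was found for mt-Nd1. The gene mt-Nd6 is the member on the minus strand and overlaps mt-Nd5 by 14 bases, and the kit used for re-isolated cells keeps no strand, so reads of the opposite strand cannot be told apart from its own.

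The next sequences are promoters of nuclear members that the results turn on. RefSeq's table for GRCm38.p6, holding 250 bases before to 50 after each gene's start, matched 66 of the 82 nuclear members. Shown are Uqcr11 at chr10:80406772-80407071 (minus strand), Atp5k at chr5:108434350-108434649 (minus strand) and Cox5b at chr1:36691237-36691536 (plus strand), which were lower in N1KO cells, and the muscle isoform gene Cox8b at chr7:140900397-140900696 (minus strand), which was lower in cultured N1OE cells. Capitals mark matches on either strand to GCGCNTGCG (the core of the NRF1 motif, N being any base), CCGGAAG (an ETS motif) and CAGCTG (an E-box of the kind myogenic factors bind).
Uqcr11: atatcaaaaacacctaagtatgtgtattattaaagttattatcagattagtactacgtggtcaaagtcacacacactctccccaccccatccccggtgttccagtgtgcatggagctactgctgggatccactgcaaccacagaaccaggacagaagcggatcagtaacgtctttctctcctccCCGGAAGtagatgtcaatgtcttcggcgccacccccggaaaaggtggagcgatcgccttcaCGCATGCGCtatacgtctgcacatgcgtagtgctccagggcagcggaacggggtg
Atp5k: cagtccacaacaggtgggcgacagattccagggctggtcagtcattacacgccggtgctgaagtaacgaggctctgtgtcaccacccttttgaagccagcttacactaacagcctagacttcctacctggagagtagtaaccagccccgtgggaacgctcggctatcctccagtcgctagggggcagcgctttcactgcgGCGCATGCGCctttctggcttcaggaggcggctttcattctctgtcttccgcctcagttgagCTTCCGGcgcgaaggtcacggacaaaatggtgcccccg
Cox5b: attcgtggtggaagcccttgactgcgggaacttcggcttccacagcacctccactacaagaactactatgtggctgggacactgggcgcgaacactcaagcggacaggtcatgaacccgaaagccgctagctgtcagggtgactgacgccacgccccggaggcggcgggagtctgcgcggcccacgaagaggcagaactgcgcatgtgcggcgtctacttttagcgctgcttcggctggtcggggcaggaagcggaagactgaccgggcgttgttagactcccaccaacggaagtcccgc
Cox8b: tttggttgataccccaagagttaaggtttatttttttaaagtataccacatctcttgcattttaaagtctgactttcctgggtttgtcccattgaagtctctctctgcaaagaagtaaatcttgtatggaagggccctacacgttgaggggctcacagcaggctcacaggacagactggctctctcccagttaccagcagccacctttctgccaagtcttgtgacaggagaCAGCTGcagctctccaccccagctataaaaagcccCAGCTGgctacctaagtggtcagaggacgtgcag
Uqcr11 held 1 NRF1 and 1 ETS match, Atp5k held 1 ETS match and 2 NRF1 matches that overlap on opposite strands, Cox5b held none of these letters, and Cox8b held 2 E-box matches. Over the matched members, 22 of 66 (33.3%) held the NRF1 motif against 7.12% of 27025 genes with a promoter in the table, 15 of 66 (22.7%) the ETS motif against 9.93%, and 6 of 66 (9.09%) the E-box against 18.3%. A longer NRF1 form, with 1 more C at its 3′ end, was in 15 of 66 members (22.7%) and in 5.19% of all these genes. A match is a description of letters, and factor binding was not measured here.

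In cultured controls the mitochondrial genome supplied most of the respiratory chain RNA, and its share was lower in re-isolated controls. The 13 mitochondrially encoded members summed to 38582, 33749, 33275 and 33157 CPM in the 4 cultured controls. In re-isolated controls the same sum had a lowest value of 4343, a median of 9618 and a highest of 20347 CPM. No re-isolated control library reached the lowest cultured one. The 82 nuclear members summed to 12771 ± 1527 CPM (SD, n = 4) in cultured controls and 11823 ± 1527 CPM (SD, n = 9) in re-isolated controls, and there the groups overlapped. The ratio of the mitochondrial to the nuclear sum was 2.73 ± 0.235 (SD, n = 4) in cultured controls, 2.57 ± 0.148 (SD, n = 3) in cultured N1OE, 0.805 ± 0.423 (SD, n = 9) in re-isolated controls, 0.708 ± 0.368 (SD, n = 4) in re-isolated N1OE and 1.59 ± 0.725 (SD, n = 3) in N1KO. The N1KO libraries stood at 0.766, 2.13 and 1.88, so replicate 1 lay within the range of the re-isolated controls, 0.350 to 1.64, and the other two above it. These sums are descriptions and carry no test.

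**Figure D1:**
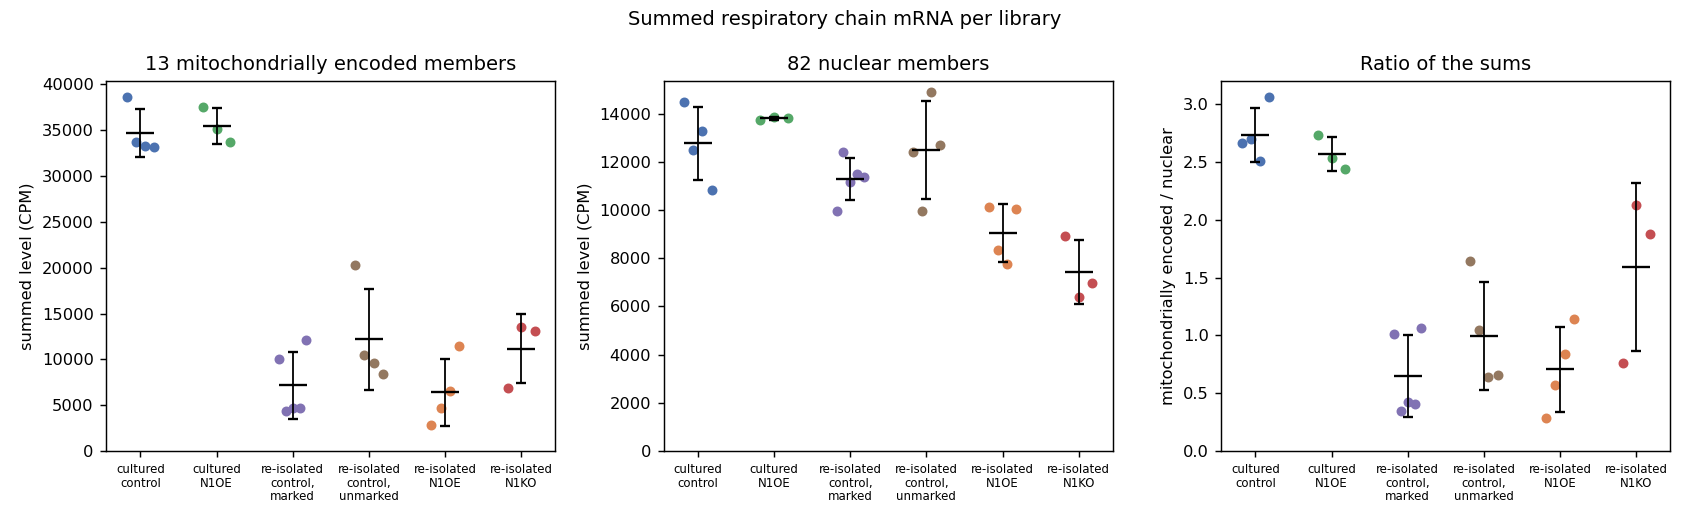
Summed CPM of the 13 mitochondrially encoded members, of the 82 nuclear members, and their ratio, 1 point per library, with bars at the group mean and SD. Cultured libraries hold 33157 to 38582 CPM of mitochondrial RNA, above the 20347 CPM of the highest re-isolated control, while the nuclear sums of control libraries overlap.

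Per kilobase of transcript, mt-Co1, which encodes the catalytic subunit of complex IV, was the highest member in cultured controls at a mean of 8373 CPM per kb, followed by mt-Cytb, the cytochrome b of complex III, at 6084 and mt-Nd1 of complex I at 4718. In re-isolated controls the order changed to mt-Cytb at 3897, mt-Nd1 at 1567 and mt-Co1 at 1463 CPM per kb. Among nuclear members Atp5b, the catalytic beta subunit of complex V, was the highest in cultured controls at 1058 CPM per kb and stood at 572 in re-isolated controls, where Cox4i1, the general isoform of a nuclear complex IV subunit, stood at 719. At the other end Cox8c, Cox7b2 and Ndufb11b did not exceed 0.472 CPM in any library. Cox8c and Cox7b2 are known as testis isoforms.

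Between re-isolated and cultured controls the members split by genome, by complex and by gene. Of 91 members that passed a filter of 1 CPM in at least 3 libraries, 22 nuclear genes were higher and 24 lower in re-isolated controls at an adjusted p under 0.05, by limma with Benjamini-Hochberg adjustment over all genes. In this comparison 58.1% of all tested genes were called, 24.1% higher and 33.9% lower, so the nuclear counts lay near the background. Of 12 mitochondrially encoded members tested, none was higher and 6 were lower. The median log2 fold change was -0.01 over nuclear members, -1.71 over mitochondrially encoded members and -0.23 over all genes. Fibro-adipogenic, macrophage, pericyte and Schwann markers were higher in re-isolated controls, with 4 of 5, 5 of 5, 4 of 4 and 2 of 2 tested genes called, and their part in these differences was not tested.

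The 6 mitochondrial members called lower were mt-Nd6, mt-Nd5, mt-Nd2, mt-Nd4, mt-Co1 and mt-Nd1. For mt-Nd2, a core subunit of complex I, cultured controls held 3376, 2901, 3136 and 3039.9 CPM and re-isolated controls a lowest of 48.7, a median of 123 and a highest of 521 CPM. Every re-isolated library lay below every cultured one, at a log2 fold change of -4.39 ± 0.59, adjusted p = 1.65e-05. For mt-Co1 the cultured values of 14450.5, 12799, 12749 and 11747 CPM stood against a lowest of 388, a median of 2055 and a highest of 6618 CPM after re-isolation, again with no overlap (-3.03 ± 0.65, adjusted p = 0.00102). For mt-Nd1 the cultured controls held 4838, 4169, 4614 and 4439 CPM and the re-isolated ones a lowest of 317, a median of 849.8 and a highest of 4884 CPM. Here the groups overlapped through replicate 2 of the re-isolated controls, at 4884 CPM (-2.20 ± 0.65, adjusted p = 0.0094). The member that moved least of the abundant ones was mt-Cytb, with 7901, 6989, 6709 and 6239 CPM in cultured controls and a lowest of 2685, a median of 3676 and a highest of 6798 CPM in re-isolated ones. Its groups overlapped and it did not pass the test (-0.72 ± 0.36, adjusted p = 0.102). The minus-strand gene mt-Nd6 had the most negative estimate, -4.41 ± 0.45, adjusted p = 1.20e-06, at 1021, 798, 720.0 and 1025 CPM against 16.2 to 87.5; its strand and copy limits are given above.

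**Figure D2:**
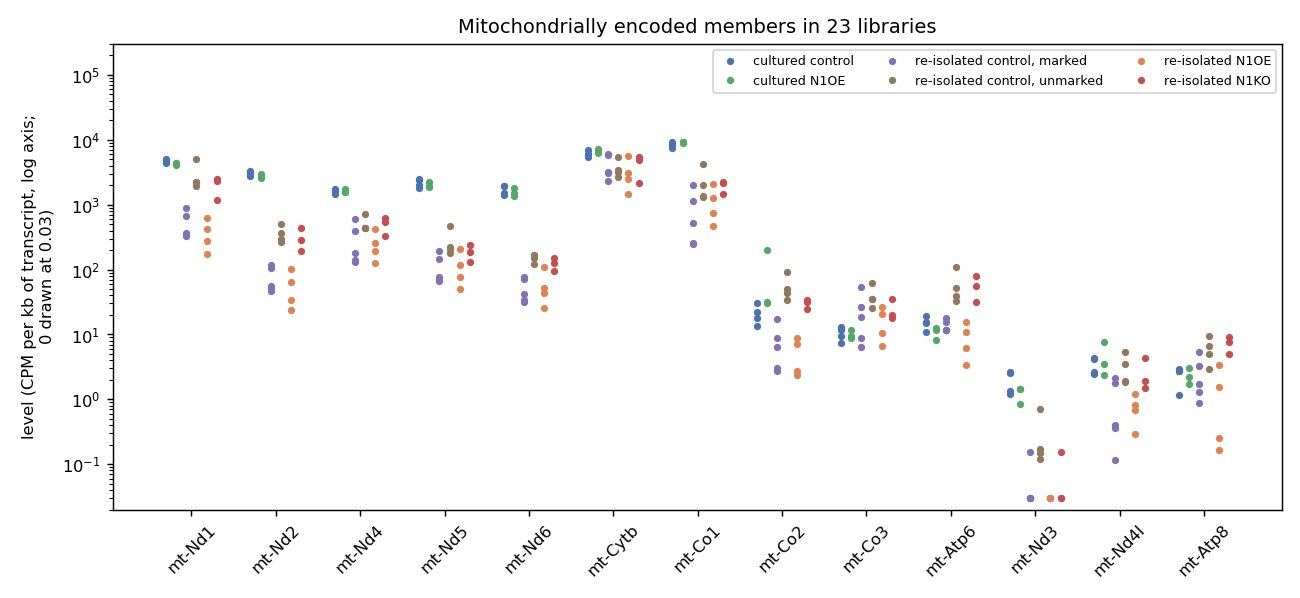
Level of each of the 13 mitochondrially encoded members per library, in CPM per kilobase on a log axis, by library set, with libraries at 0 drawn at the lower edge. Of the abundant members, mt-Cytb and mt-Nd1 overlap between re-isolated and cultured libraries. The members with near-identical nuclear copies and mt-Atp8 have lower mean levels than the other members in every set; in N1KO mt-Atp6 stands at 55.7 and mt-Nd6 at 124 CPM per kilobase.

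By complex, and for nuclear-encoded subunits alone, the mean sum of the re-isolated controls was higher for complex I and lower for complexes IV and V. For complex IV every GoF-marked control lay below every cultured one, while the unmarked controls overlapped the cultured ones. The mitochondrially encoded complex I members called were all lower, as given above. The nuclear sum of complex I was 2986 ± 214 CPM (SD, n = 4) in cultured and 4142 ± 572 CPM (SD, n = 9) in re-isolated controls, with 14 of 36 tested members called higher, 4 lower and a median log2 fold change of 0.33. The sum of complex III was 1317 ± 181 against 1783 ± 451 CPM, with 2 of 8 members higher and 1 lower. The sum of complex IV was 2571 ± 295 against 1973 ± 588 CPM, with 3 of 18 members higher, 10 lower and a median of -0.87. Marked controls held 1363 to 1698 CPM of it and unmarked controls 2119 to 2877, beside 2145 to 2779 CPM in cultured controls. The single gene Ndufa4l2 made up 310 to 709 CPM of the unmarked sums, against a mean of 0.0427 CPM in cultured controls. The overlap of the unmarked sums thus cannot be read as unchanged levels of the other subunits. The sum of complex V was 5897 ± 917 against 3926 ± 820 CPM, with 3 of 17 members higher, 9 lower and a median of -0.85. It stood at 2639 to 4216 CPM in marked, 3818 to 5263 in unmarked and 4839 to 6909 in cultured controls. Complex II, which lies outside the rule, summed to 821 ± 154 and 733 ± 99.4 CPM, with 1 of 4 genes called lower. The counts of each complex stand beside 24.1% of all genes called higher and 33.9% called lower.

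Among the members that rose after re-isolation, Ndufs7, a core iron-sulfur subunit of complex I, held 85.7, 74.6, 71.3 and 52.5 CPM in cultured controls and a lowest of 122, a median of 184 and a highest of 268 CPM in re-isolated ones. The groups did not overlap, at a log2 fold change of 1.36 ± 0.21, adjusted p = 6.62e-05. The accessory subunits Ndufb9 (1.59 ± 0.27, adjusted p = 0.000148), Ndufb6 (1.06 ± 0.18, adjusted p = 0.000155), Ndufb5 (0.99 ± 0.18, adjusted p = 0.000227) and Ndufv3 (1.04 ± 0.19, adjusted p = 0.000293) rose likewise with no overlap. Ndufv1, the flavoprotein core subunit, did not pass the test (0.36 ± 0.22, adjusted p = 0.18), and Ndufs1, the largest core subunit, fell (-0.68 ± 0.22, adjusted p = 0.0134). In complex III, Uqcrc1, a core protein, rose (1.11 ± 0.43, adjusted p = 0.0387) with overlapping groups, and Uqcrfs1, the Rieske iron-sulfur protein, did not pass (0.29 ± 0.28, adjusted p = 0.38).

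The members that fell most clearly were small subunits. Atp5k, the e subunit of complex V, held 98.7, 76.4, 92.3 and 78.5 CPM in cultured controls and a lowest of 6.76, a median of 14.5 and a highest of 18.1 CPM in re-isolated ones. The groups were far apart, at -2.68 ± 0.25, adjusted p = 4.05e-07. Cox7c (-2.30 ± 0.28, adjusted p = 6.43e-06), Atp5e, the epsilon subunit (-2.17 ± 0.28, adjusted p = 1.23e-05), Atp5md (-2.73 ± 0.39, adjusted p = 2.75e-05) and Ndufa3 (-2.24 ± 0.32, adjusted p = 3.25e-05) fell with no overlap. Cox6b2, known as the testis isoform of a complex IV subunit, held 43.2, 76.6, 52.2 and 27.2 CPM in cultured controls and 0.213 to 4.28 CPM in re-isolated ones, at -5.62 ± 0.62, adjusted p = 2.68e-06. Cox6b1, its general partner, fell as well (-1.18 ± 0.29, adjusted p = 0.00295). The core subunits of complex V also fell: Atp5a1 from 1275 ± 248 to 648 ± 165 CPM (-1.01 ± 0.26, adjusted p = 0.00398) and Atp5b from 2027 ± 443 to 1097 ± 399 CPM (-0.97 ± 0.35, adjusted p = 0.0255). The call of Atp5b was lost without cultured control replicate 1 or 3 (adjusted p = 0.0813 and 0.0723).

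Transcript length went with these differences in opposite ways in members and in other genes. Over 78 nuclear members with a known length, the log2 fold change rose with length (Spearman rho = 0.31), and over 13600 other genes it fell with length (rho = -0.32). Members of up to 700 bases had a median of -0.32 and longer members 0.29, against 0.32 and -0.25 for other genes. Another scaling moved these counts: with median ratio scaling the median of all genes shifted by 0.30 from -0.23 to 0.07, and 30 nuclear members were called higher and 17 lower in place of 22 and 24. No called member changed sign. Against cultured controls the GoF-marked controls gave 24 nuclear members higher, 29 lower and 8 mitochondrial members lower (61.7% of all genes called, 25.3% higher and 36.4% lower), which became 30 and 18 nuclear members with median ratio scaling, where the median of all genes shifted by 0.29. The unmarked controls gave 22 and 23 nuclear members, and 3 mitochondrial members higher and 5 lower (61.3% of all genes, 26.6% higher and 34.7% lower), which became 32 and 14 nuclear members with a shift of 0.31.

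Among the related lists, mitochondrial ribosome genes moved more often up, with 26 of 77 called higher and 12 lower, and genes of mitochondrial gene expression and biogenesis more often down, with 1 of 18 higher and 10 lower. The tricarboxylic acid cycle list had 2 of 13 genes higher and 6 lower, and the assembly factors 9 of 37 higher and 7 lower. All of these are read against the 24.1% and 33.9% of all genes called.

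In cultured progenitors, NICD1 overexpression was accompanied by lower RNA of 2 muscle isoforms of complex IV, Cox6a2 and Cox8b, and no other member was called. Of 88 members tested, 2 nuclear members were lower and none was higher, and no mitochondrial member was called; of all tested genes 10.8% were called, 6.03% lower and 4.73% higher. Cox6a2, the heart and skeletal muscle isoform of subunit 6a, held 1.42, 7.07, 0.789 and 6.72 CPM in cultured controls and 0, 0 and 0.102 CPM in cultured N1OE. All N1OE libraries lay below all controls, with 269 reads against 2, a ratio of 99.5 with a 95% exact interval of 27.3 to 826 that covers counting error only. Cox8b, the muscle isoform of subunit 8, held 11.4, 4.91, 2.18 and 5.59 CPM in controls and 0.990, 0.126 and 0.559 CPM in N1OE, again with no overlap. The adjusted p-values were 0.0179 for Cox6a2 and 0.0327 for Cox8b. Both genes passed the filter on low values through the control libraries alone, since no N1OE library reached 1 CPM, and their share of the nuclear members lies under that of all genes called lower. The general isoforms Cox6a1 and Cox8a did not pass, at 0.15 ± 0.17, adjusted p = 0.585 and -0.02 ± 0.22, adjusted p = 0.958. Cox7a1, another muscle isoform, stood at 3.40, 6.42, 3.62 and 1.43 CPM and 4.36, 3.02 and 3.15 CPM and did not pass (0.08 ± 0.48, adjusted p = 0.918).

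Markers of differentiated muscle moved with these isoforms: 6 of 11 tested markers were called lower, all 11 had negative estimates with a median of -4.46, and their sum was 723 to 8610 CPM in cultured controls against 204 to 908 in cultured N1OE. Their part in the isoform difference was not tested. Both isoform calls depended on single libraries. Without N1OE replicate 1, 2 or 3 the adjusted p of Cox6a2 became 0.0705, 0.092 or 0.0632, and that of Cox8b became 0.0562, 0.114 or 0.117; without control replicate 1 or 2 that of Cox8b became 0.0508 or 0.0767.

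Of all nuclear members tested in culture, 57 of 77 had positive estimates, and the median of 0.09 lay beside 0.07 over all genes. With median ratio scaling 44 were positive and 33 negative, with a median of 0.02 beside -0.01 over all genes. After Cox6a2 and Cox8b, Cox6b2 had the smallest p among nuclear members, at 43.2, 76.6, 52.2 and 27.2 CPM in controls and 84.8, 84.0 and 88.8 CPM in N1OE. The groups did not overlap, but the gene did not pass the test (0.88 ± 0.31, adjusted p = 0.107). The median over mitochondrial members was -0.04, and mt-Co1 (0.13 ± 0.14, adjusted p = 0.552), mt-Cytb (0.14 ± 0.13, adjusted p = 0.497) and mt-Nd1 (-0.15 ± 0.11, adjusted p = 0.374) did not pass. At an unadjusted p under 0.05 none of the 11 mitochondrial members tested was higher or lower, and limma-voom on reads called none; over nuclear members the unadjusted counts were 11 higher and 2 lower, and limma-voom called none. The mitochondrial ribosome list had 4 of 77 genes called higher and none lower, near the 4.73% of all genes called higher. By limma Tfam of the gene expression and biogenesis list (0.51 ± 0.11, adjusted p = 0.031) and the assembly factor Tmem70 (0.49 ± 0.11, adjusted p = 0.0354) were also called higher. At an unadjusted p under 0.05 these lists had 26 of 77, 6 of 17 and 7 of 37 genes higher and none lower.

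The GoF-marked and unmarked re-isolated controls, which share a genotype label, differed in mitochondrial RNA, while nuclear members were called no more often than all genes. Of 12 mitochondrial members tested, 7 were lower in the marked set and none higher, and of 79 nuclear members 5 were higher and 10 lower. Among all genes 22.9% were called, 10.5% higher and 12.5% lower, so the nuclear counts lay near or under that background. The median log2 fold change was -1.70 over mitochondrial members, -0.15 over nuclear members and -0.02 over all genes. For mt-Nd1 the marked controls held 643, 354, 331, 317 and 849.8 CPM and the unmarked 4884, 2158, 2105 and 1854 CPM. No marked library reached the lowest unmarked one (-2.47 ± 0.41, adjusted p = 0.000198). For mt-Nd2 the values were 109, 48.7, 56.9, 54.5 and 123 CPM and 521, 309.9, 377 and 278 CPM, lower in the same libraries (-2.31 ± 0.39, adjusted p = 0.000233); replicate 9 was the highest marked library. mt-Cytb did not follow, at 6674, 2685, 3599, 3531 and 6798 CPM against 6222, 3676, 3901 and 3039 CPM, with overlapping sets (0.10 ± 0.44, adjusted p = 0.897). mt-Nd6 (-1.66 ± 0.36, adjusted p = 0.00228), mt-Nd5 (-1.33 ± 0.40, adjusted p = 0.0195) and mt-Co1 (-1.73 ± 0.55, adjusted p = 0.0252) were also called lower, as were mt-Co2 and mt-Atp6, whose origin is uncertain, while mt-Nd4 did not pass (-1.05 ± 0.41, adjusted p = 0.0694).

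The nuclear members with the most negative estimates between the control sets were the alternative complex IV isoforms. Cox4i2, the isoform of subunit 4 known from lung and from hypoxia, held 1.80, 3.40, 1.12, 0.909 and 5.71 CPM in marked and 84.4, 99.6, 63.8 and 87.8 CPM in unmarked controls. The sets were far apart (-5.30 ± 0.53, adjusted p = 7.90e-07). Ndufa4l2, the hypoxia-induced relative of Ndufa4, held 1.83, 43.6, 7.88, 7.70 and 56.2 CPM and 456, 709, 319 and 310.4 CPM, again with no overlap (-5.10 ± 0.69, adjusted p = 2.48e-05). Both genes are also known as transcripts of mouse pericytes, and the pericyte marker Rgs5 was lower in the marked set, at 5.98 to 41.6 CPM against 44.5 to 161. The whole pericyte and smooth muscle list had 1 of 4 genes higher, which was Acta2, and 1 lower, with a sum of 1651 to 3118 CPM in marked and 885 to 1665 CPM in unmarked controls and no marker at 0. The part of pericytes in these values was not tested. In cultured controls Ndufa4l2 had 3 reads in all against 40025 in the re-isolated controls, a ratio of 5404 with a 95% exact interval of 1849 to 26207 for counting error.

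The muscle isoforms differed between the control sets as well. Cox6a2 held 8.26, 5.41, 2.93, 2.73 and 14.8 CPM in marked and 40.6, 17.9, 34.5 and 40.3 CPM in unmarked controls (-2.50 ± 0.51, adjusted p = 0.00141), and Cox8b held 1.35, 0.491, 0.693, 0.424 and 1.68 CPM and 9.23, 3.13, 8.14 and 7.59 CPM (-2.93 ± 0.60, adjusted p = 0.00143). Neither pair of sets overlapped. Markers of differentiated muscle moved with them, with 5 of 11 lower and 1 higher in the marked set and sums of 836 to 2104 CPM against 2718 to 5729. Satellite cell markers had 3 of 8 lower, with sums of 1278 to 1967 against 2120 to 2738 CPM, and fibro-adipogenic markers 2 of 5 higher, with 7955 to 16171 against 1965 to 3610 CPM. The part of these cell types was not tested. The general isoforms Cox4i1 (-0.41 ± 0.33, adjusted p = 0.394), Cox6a1 (-0.85 ± 0.32, adjusted p = 0.0584), Cox8a (-0.84 ± 0.33, adjusted p = 0.0697) and Ndufa4 (0.46 ± 0.35, adjusted p = 0.358) did not pass.

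**Figure D3:**
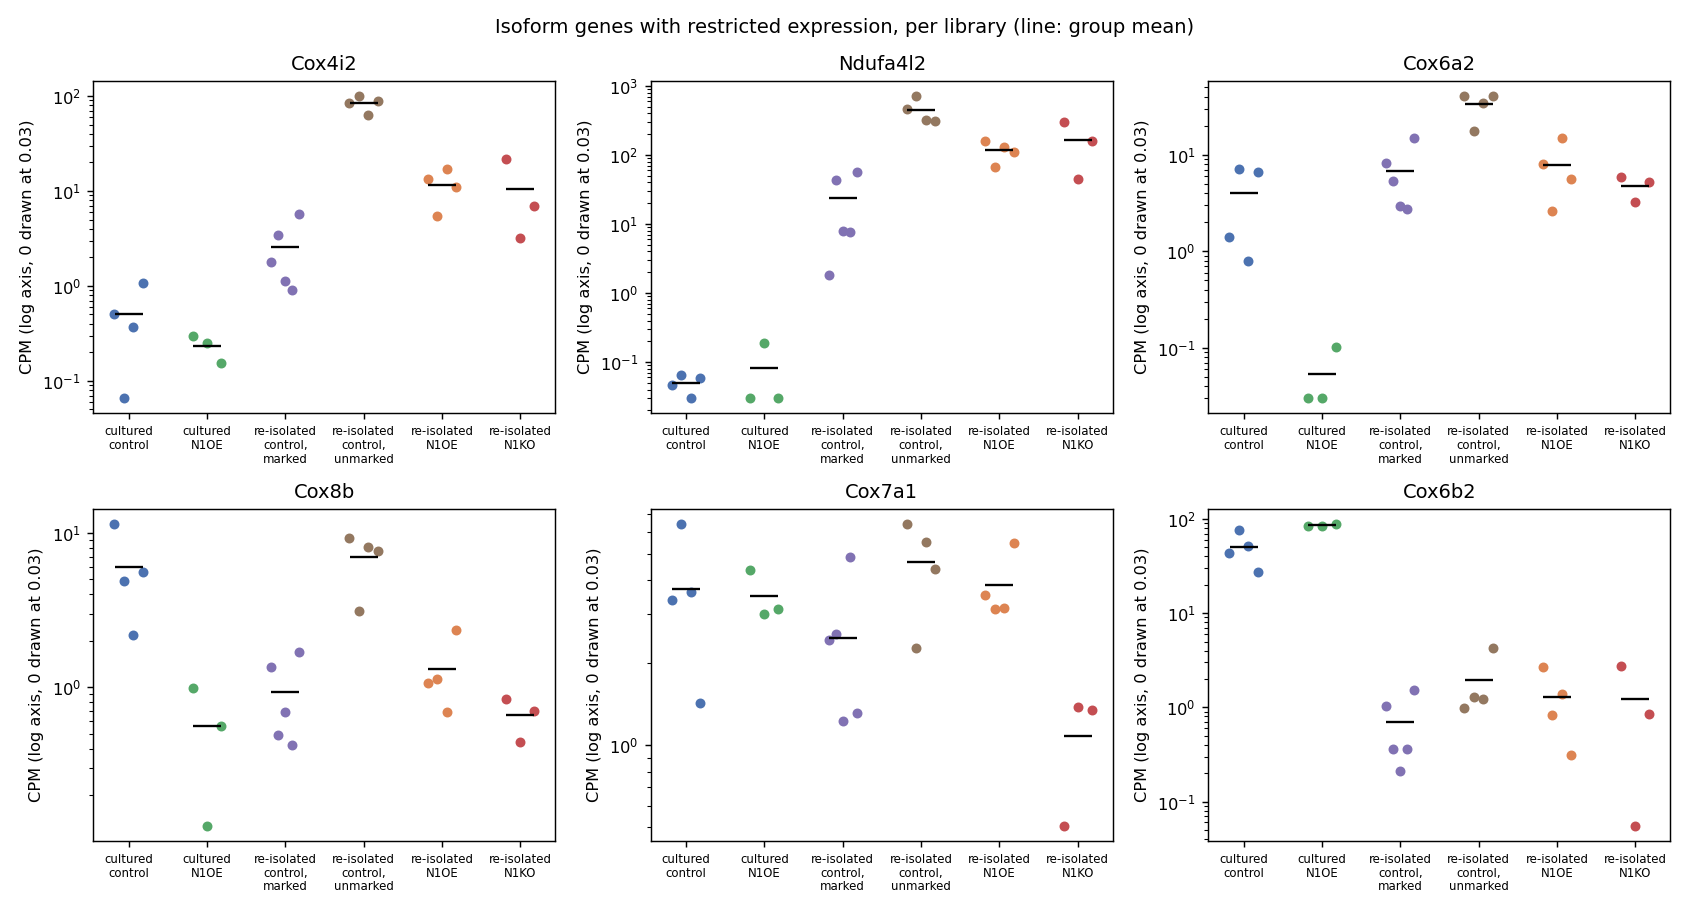
Level of the alternative isoform genes Cox4i2, Ndufa4l2, Cox6a2, Cox8b, Cox7a1 and Cox6b2 per library, in CPM on a log axis, with a line at each set's mean. Cox4i2 and Ndufa4l2 are near 0 in culture and higher in unmarked than in GoF-marked controls, Cox6a2 and Cox8b are low in cultured N1OE, and Cox6b2 is abundant in culture alone.

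Some subunits went the other way. Uqcrc1 held 689, 1391, 1274, 1187 and 638 CPM in marked and 241, 292, 505 and 398 CPM in unmarked controls and was higher in every marked library (1.51 ± 0.31, adjusted p = 0.00141). Uqcr11, a small subunit of complex III, held 186, 182, 178, 219 and 166 CPM and 90.8, 40.1, 99.1 and 79.5 CPM, also with no overlap (1.34 ± 0.32, adjusted p = 0.00464). The c-ring subunit Atp5g2, which has a near-identical copy elsewhere in the genome, and the complex I subunit Ndufc2 had less RNA in the marked set (-1.77 ± 0.35, adjusted p = 0.000992 and -1.93 ± 0.36, adjusted p = 0.000682). Of the 22 members called, 15 kept their call when any 1 library was left out. The sets rest on the column headers, and the sample description of replicate 7 lacks the suffix: with that library moved to the unmarked set, no member and no other gene was called. In its low counts replicate 7 lay with the marked set. Its number of genes with 1 read over that with 2 reads was 4.17. The other marked controls stood at 4.55 to 5.91 and the unmarked ones at 1.08 to 1.502.

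After re-isolation, NICD1 overexpression was accompanied by lower estimates for most members but few calls, and the counts depended on which controls were used. Against all 9 controls, 68 of 79 nuclear members had negative estimates with a median of -0.47, all 12 mitochondrial members had negative estimates with a median of -0.78, and the median of all genes was 0.06. Called lower were 3 nuclear members, Atp5mpl, Ndufb1 and Cox5a, and none was called higher; no mitochondrial member was called, though 5 of 12 were lower and none higher at an unadjusted p under 0.05. Limma-voom on reads called 1 nuclear member lower and no mitochondrial one. Of all genes 7.06% were called, 3.29% lower and 3.78% higher. Atp5mpl, a small membrane subunit of complex V, held 13.7, 7.84, 8.08 and 24.1 CPM in N1OE and a lowest of 15.9, a median of 34.2 and a highest of 62.2 CPM in controls. The groups overlapped (-1.53 ± 0.39, adjusted p = 0.0196). Ndufb1, a small accessory subunit of complex I, held 1.92, 2.11, 2.92 and 6.79 CPM against a lowest of 4.48, a median of 8.22 and a highest of 19.3 CPM (-1.60 ± 0.44, adjusted p = 0.0331), and Cox5a, a nuclear subunit of complex IV, held 71.8, 36.5, 31.6 and 36.1 CPM against a lowest of 62.1, a median of 79.6 and a highest of 133 CPM (-0.93 ± 0.27, adjusted p = 0.0439). Replicate 1 of N1OE lay within the control range for Cox5a and the other replicates below every control.

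Single libraries decided these counts. Without N1OE replicate 2 or replicate 3 no member was called, without control replicate 9 there was 1, without control replicate 1 or 3 or N1KO replicate 3, which enters the shared spread, there were 5, without control replicate 4 or 8 there were 6, and without N1OE replicate 4 there were 7.

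Against the GoF-marked controls alone, 2 nuclear members were higher in N1OE and 7 lower, with no mitochondrial member called, also at an unadjusted p under 0.05 and by limma-voom (13.5% of all genes called, 7.53% higher and 5.93% lower). The higher ones were Ndufa4l2, at 160.5, 66.4, 132 and 109.8 CPM in N1OE against 1.83 to 56.2 CPM (3.18 ± 0.69, adjusted p = 0.00274), and Cox4i2, at 13.3, 5.41, 16.9 and 11 CPM against 0.909 to 5.71 CPM (2.36 ± 0.53, adjusted p = 0.0037). The pericyte and smooth muscle list had 1 of 4 genes higher, which was Rgs5 at 131 to 544 CPM in N1OE against 5.98 to 41.6 CPM, and 1 lower, which was Acta2, and no marker was at 0; the list summed to 834 to 1235 CPM in N1OE, below the marked controls at 1651 to 3118 CPM. The part of pericytes was not tested. The lower ones with the smallest p were Atp5mpl (-1.62 ± 0.42, adjusted p = 0.0108), Ndufa4 (-1.23 ± 0.35, adjusted p = 0.0188), Ndufa3 (-1.50 ± 0.43, adjusted p = 0.0207), Atp5e (-1.30 ± 0.41, adjusted p = 0.0385), Atp5k (-1.45 ± 0.47, adjusted p = 0.043) and Ndufb1 (-1.48 ± 0.48, adjusted p = 0.0438). The count of 9 fell to 2 without N1OE replicate 2, to 3 without N1OE replicate 3 and to 4 without control replicate 1.

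Against the unmarked controls alone, 1 nuclear member was higher and 21 lower, and 6 of 12 mitochondrial members were lower (19% of all genes called, 9.4% higher and 9.63% lower). N1OE libraries held 166, 260.2, 399 and 597 CPM of mt-Nd1 against 4884, 2158, 2105 and 1854 CPM in unmarked controls, with no overlap (-2.99 ± 0.43, adjusted p = 7.31e-05). For mt-Nd2 the N1OE values were 24.6, 34.8, 66.2 and 107 CPM, also below every unmarked control (-2.86 ± 0.41, adjusted p = 7.29e-05). The N1OE values of both genes overlapped the GoF-marked controls, against which they did not pass (-0.53 ± 0.41, adjusted p = 0.45 and -0.55 ± 0.39, adjusted p = 0.401). The nuclear members lowest in p were Ndufc2 (-2.57 ± 0.38, adjusted p = 0.000113), Atp5g2 (-2.44 ± 0.37, adjusted p = 0.00012), Atp5g3 (-2.12 ± 0.36, adjusted p = 0.000425), Cox4i2 (-2.94 ± 0.56, adjusted p = 0.00117), Cox6a1 (-1.57 ± 0.34, adjusted p = 0.00298) and Atp5d (-1.48 ± 0.33, adjusted p = 0.00331). The higher one was Uqcrc1, at 889, 1041, 734 and 599 CPM against 241, 292, 505 and 398 CPM (1.21 ± 0.33, adjusted p = 0.0129), a call lost without control replicate 2 (adjusted p = 0.0535). The comparisons with each set share the N1OE libraries, and Cox4i2 thus lay above 1 control set and below the other.

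Within the N1OE group, replicate 1 was the lowest library for 11 of 12 mitochondrial members and replicate 4 the highest for 10. Marker sums differed from the controls too: fibro-adipogenic markers summed to 707 to 2016 CPM in N1OE against 1965 to 16171 in all controls, with 2 of 5 called lower, and Schwann cell markers to 161 to 295 CPM against 30.4 to 183, with Sox10 called higher. Their part in the members' values was not tested. Of the related lists against all controls, 1 of 13 tricarboxylic acid cycle genes was called lower, and limma called none among 4 complex II genes, 37 assembly factors and 77 mitochondrial ribosome genes. At an unadjusted p under 0.05 these lists had none, 1 and 8 genes lower.

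The loss of Notch1 was accompanied by lower RNA of short nuclear subunits; mitochondrial members were not called against all controls, and 5 were called higher against the GoF-marked controls alone. Against all 9 re-isolated controls, 76 of 79 nuclear members had negative estimates in N1KO, with a median log2 fold change of -1.02. There 11 of 12 mitochondrial members had positive estimates, with a median of 0.81, and the median of all genes was 0.01. The sign of the mitochondrial median depended on the control set, at 1.60 against the GoF-marked and -0.27 against the unmarked controls. Called lower were 9 nuclear members and called higher none, where 0.657% of all genes were called, 0.191% lower and 0.466% higher. Of the 27 genes called lower in the whole table, 9 were members. The called members lay in every complex: 3 of 36 tested in complex I, 3 of 8 in complex III, 1 of 18 in complex IV and 2 of 17 in complex V.

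Uqcrq (chromosome 11), a small subunit of complex III, held 88.9, 42.8 and 27.9 CPM in N1KO and a lowest of 104, a median of 201 and a highest of 257 CPM in controls. All 3 N1KO libraries lay below every control, with means of 53.2 ± 31.8 (SD, n = 3) and 195 ± 45.6 (SD, n = 9) CPM and a log2 fold change of -2.0 ± 0.34, adjusted p = 0.00931. Uqcr11 (chromosome 10), whose promoter is printed above, held 41.4, 22.8 and 13.9 CPM against a lowest of 40.1, a median of 166 and a highest of 219 CPM. Replicate 1 of N1KO overlapped the lowest control, replicate 3, and the others lay below all controls (-2.38 ± 0.44, adjusted p = 0.0173). Uqcr10, the third small subunit of complex III called, held 40.9, 21 and 11.4 CPM against a lowest of 28.2, a median of 81.8 and a highest of 98.4 CPM, with overlap through the same libraries (-1.78 ± 0.39, adjusted p = 0.0383). Uqcrc1 and Uqcrfs1, the larger subunits of the complex, did not pass (-0.66 ± 0.46, adjusted p = 0.645 and -0.42 ± 0.33, adjusted p = 0.699).

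In complex I, Ndufa1 (chromosome X), a small membrane subunit needed for assembly of the complex in mammalian cells, held 8.83, 7.49 and 3.17 CPM in N1KO and a lowest of 15.7, a median of 21.9 and a highest of 40.1 CPM in controls. The groups did not overlap (-2.0 ± 0.40, adjusted p = 0.0267). The core subunits Ndufs1 and Ndufv1 did not pass (-0.35 ± 0.29, adjusted p = 0.722 and -0.40 ± 0.30, adjusted p = 0.686). In complex IV, Cox5b (chromosome 1), a zinc-binding nuclear subunit, held 101, 40.7 and 25.8 CPM against a lowest of 102, a median of 144 and a highest of 201 CPM. Its highest N1KO library lay just under the lowest control (-1.60 ± 0.35, adjusted p = 0.0386). In complex V, Atp5k (chromosome 5) held 5.90, 3.52 and 0.967 CPM against a lowest of 6.76, a median of 14.5 and a highest of 18.1 CPM, with no overlap (-2.27 ± 0.49, adjusted p = 0.0378). The core subunits Atp5a1 and Atp5b did not pass (-0.51 ± 0.31, adjusted p = 0.569 and -0.27 ± 0.39, adjusted p = 0.86). The remaining 3 called members, Ndufs6 (-1.71 ± 0.38, adjusted p = 0.0386), Atp5mpl (-1.90 ± 0.43, adjusted p = 0.0448) and Ndufa2 (-1.73 ± 0.40, adjusted p = 0.0491), are named after their values were seen. None of the 9 has a copy among annotated transcripts from elsewhere in the genome with 98% identity over at least 50% of its transcript. Sequence outside annotated transcripts was not searched.

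**Figure D4:**
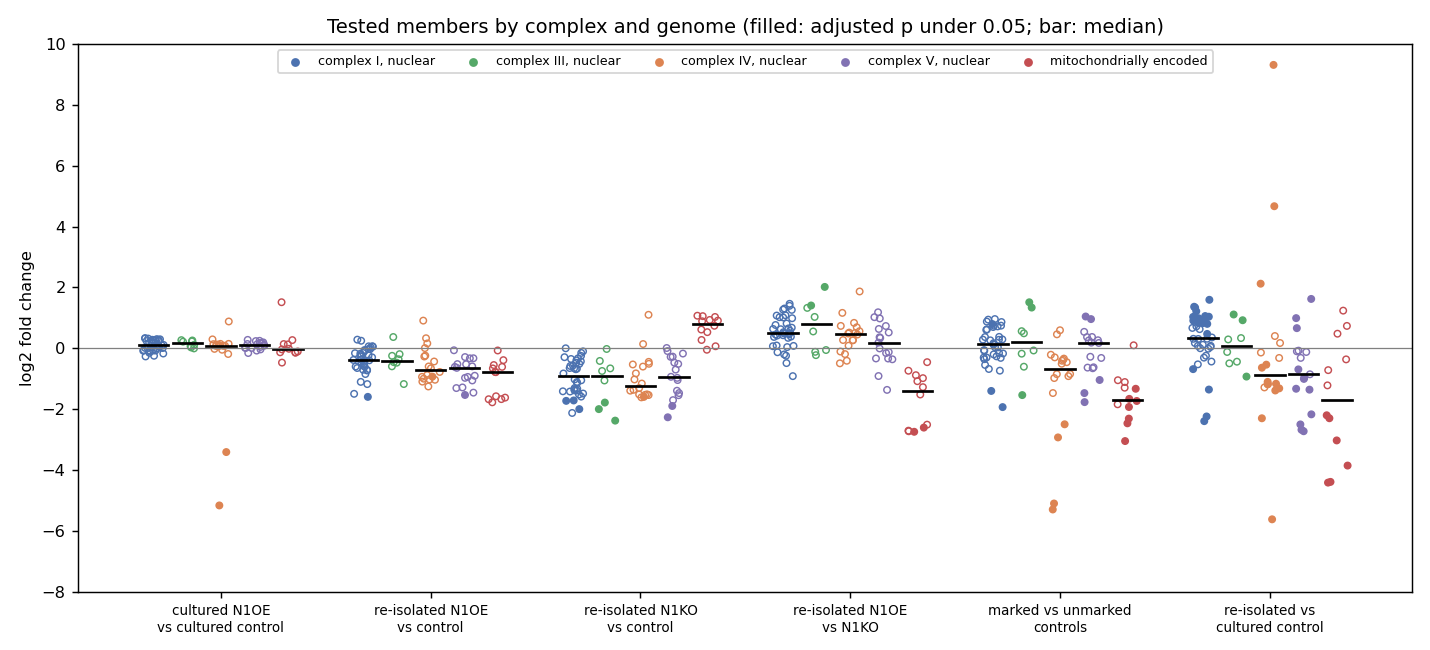
Log2 fold change of every tested member, grouped by complex and genome, in 6 comparisons, with filled points at an adjusted p under 0.05 and a bar at each group's median. In N1KO against re-isolated controls the nuclear points lie below 0 in every complex (76 of 79 negative) and the mitochondrial points above 0 (11 of 12 positive, none called). In comparisons with each control set, not drawn here, the mitochondrial median was 1.60 against GoF-marked and -0.27 against unmarked controls.

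The mitochondrial members did not pass against all controls: limma and limma-voom called none, and none was higher or lower at an unadjusted p under 0.05. mt-Nd1 held 1136, 2207 and 2382 CPM in N1KO and a lowest of 317, a median of 849.8 and a highest of 4884 CPM in controls (0.89 ± 0.69, adjusted p = 0.692), mt-Nd2 203, 462 and 296 against a lowest of 48.7, a median of 123 and a highest of 521 CPM (1.03 ± 0.65, adjusted p = 0.592), and mt-Cytb 2464, 6188 and 5641 against a lowest of 2685, a median of 3676 and a highest of 6798 CPM (0.07 ± 0.47, adjusted p = 0.98). The N1KO libraries lay within the control ranges of mt-Nd1 and mt-Nd2, and for mt-Cytb replicate 1 lay below the lowest control. Against the GoF-marked controls alone, 5 of 12 were called higher: mt-Nd2 (2.06 ± 0.42, adjusted p = 0.00673), mt-Nd1 (1.98 ± 0.44, adjusted p = 0.0114), mt-Nd6 (1.35 ± 0.39, adjusted p = 0.0432) and, with uncertain origin, mt-Co2 (2.29 ± 0.55, adjusted p = 0.0177) and mt-Atp6 (1.93 ± 0.47, adjusted p = 0.0177). All 5 calls were lost without N1KO replicate 2. Against the unmarked controls none was called by limma or limma-voom or lay under an unadjusted p of 0.05, with mt-Nd1 at -0.48 ± 0.46, adjusted p = 0.636 and mt-Nd2 at -0.25 ± 0.44, adjusted p = 0.821.

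Lower nuclear members were called against each control set. Against the marked controls 26 of 79 nuclear members were called lower and 1 higher, with a median of -0.73 (5.9% of all genes called, 2.06% lower and 3.84% higher). Against the unmarked controls 27 were called lower and none higher, with a median of -1.06 (6.47% of all genes called, 2.71% lower and 3.76% higher). Uqcrq was lower against both sets (-2.22 ± 0.34, adjusted p = 0.000892 for the marked and -1.73 ± 0.36, adjusted p = 0.00498 for the unmarked set), and so were Uqcr11 (-2.97 ± 0.35, adjusted p = 6.72e-05 and -1.63 ± 0.36, adjusted p = 0.00812), Ndufa1 (-2.05 ± 0.43, adjusted p = 0.00701 and -1.93 ± 0.45, adjusted p = 0.0103), Cox5b (-1.50 ± 0.37, adjusted p = 0.0191 and -1.72 ± 0.39, adjusted p = 0.00878) and Atp5k (-2.43 ± 0.52, adjusted p = 0.00803 and -2.06 ± 0.54, adjusted p = 0.0225). These comparisons share the 3 N1KO libraries. With the sets taken from the sample descriptions, which place replicate 7 among the unmarked, 6 members were called against the marked and 7 against the unmarked set, in place of 32 and 27. The low counts of replicate 7 lay with the marked set, as given above. Against the marked set the list also began with Ndufa11 (-2.01 ± 0.37, adjusted p = 0.00347), Uqcr10 (-2.03 ± 0.39, adjusted p = 0.00446), Atp5j2 (-1.90 ± 0.37, adjusted p = 0.00501) and Ndufa2 (-2.0 ± 0.40, adjusted p = 0.0056), and the higher member was Ndufa4l2 (3.37 ± 0.75, adjusted p = 0.0114). Against the unmarked set it began with Cox4i2 (-3.39 ± 0.61, adjusted p = 0.00144), Ndufa6 (-2.14 ± 0.41, adjusted p = 0.00256), Ndufc1 (-2.50 ± 0.53, adjusted p = 0.0054), Cox8b (-3.24 ± 0.69, adjusted p = 0.00565) and Cox6a2 (-2.75 ± 0.58, adjusted p = 0.00565).

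The counts rested on few N1KO libraries. Replicate 3 was the lowest N1KO library for 55 of 79 nuclear members and replicate 2 for 21, while replicate 1 was the highest for 65. Against all controls no member was called without N1KO replicate 2 or replicate 3, 3 were called without control replicate 2, 4, 5, 7 or 9 or N1OE replicate 1, 4 without N1OE replicate 2, 5 without control replicate 8 or N1OE replicate 3, and 15 without control replicate 3. Against the marked set the count of 32 members fell to 16 without N1KO replicate 2 and 10 without N1KO replicate 3. Against the unmarked set the count of 27 fell to 12 without control replicate 2, 13 without control replicate 5, 10 without N1KO replicate 2 and 9 without N1KO replicate 3.

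The calls lay among short members. Of 45 nuclear members with transcripts of up to 700 bases, all 9 called members were among them and the median log2 fold change was -1.40, against none of 33 longer members and a median of -0.43. Of other tested genes of up to 700 bases, 1 of 591 was called lower and their median was -0.13. The sum over all 1529 other genes of that length was 41372, 35165 and 30009 CPM in N1KO replicates 1, 2 and 3 against 35091 to 48130 CPM in controls, so replicate 3 lay below every control and replicate 2 near the lowest. Over 78 members the log2 fold change rose with transcript length (Spearman rho = 0.71), and over 14020 other genes it did not (rho = -0.09). Against the marked controls 23 of 45 short and 3 of 33 long members were lower, beside 29 of 591 other short genes, and against the unmarked controls 21 of 45 and 6 of 33, beside 45 of 591. These are descriptions across genes, which are not independent replicates, and RNA integrity was not measured in the files used here.

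**Figure D5:**
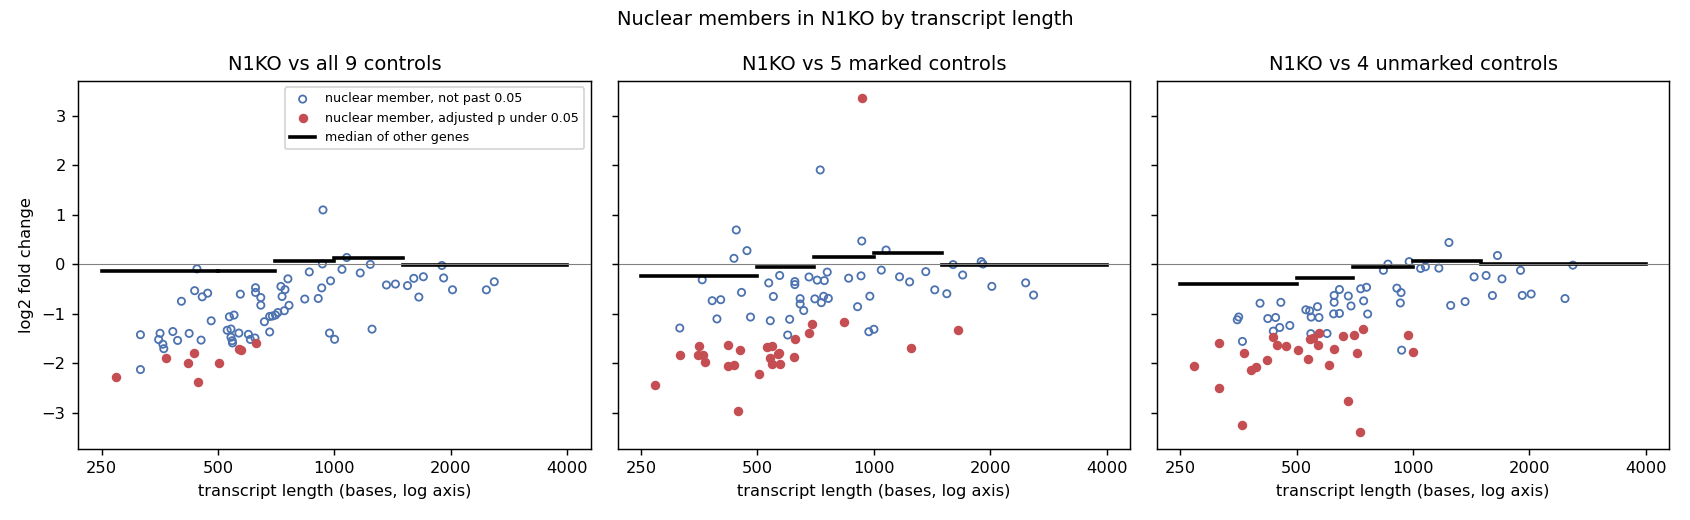
Log2 fold change of each nuclear member against its transcript length in bases (log axis) for N1KO against all, GoF-marked and unmarked re-isolated controls, with black lines at the median of other genes per length class. Members of up to 700 bases have a median of -1.40 against all controls, while other genes of that length have a median of -0.13.

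Markers of other cell types moved with the N1KO group. All 5 fibro-adipogenic markers had positive estimates and none was called, with sums of 11996 to 37771 CPM in N1KO against 1965 to 16171 in controls. Of 4 endothelial markers 2 were called higher, Pecam1 and Kdr, with sums of 31.3 to 90.8 against 0.960 to 28.7 CPM. Macrophage markers summed to 147 to 508 CPM, within the control range of 36.6 to 544 but above the unmarked controls at 36.6 to 124. Against the unmarked controls 3 of 5 fibro-adipogenic, 3 of 4 endothelial and 1 of 5 macrophage markers were called higher, and 5, 4 and 4 at an unadjusted p under 0.05. There 2 of 11 differentiated muscle markers, Atp2a1 and Ckm, were called lower and 5 at an unadjusted p under 0.05, beside the lower Cox8b and Cox6a2. Their part in the members' values was not tested. In the related mitochondrial lists limma called no gene. At an unadjusted p under 0.05 none of 4 complex II genes, 3 of 37 assembly factors, 7 of 77 mitochondrial ribosome genes, none of 18 genes of mitochondrial gene expression and biogenesis and 2 of 13 tricarboxylic acid cycle genes were lower and none was higher, with medians of 0.04, 0.01, -0.13, -0.11 and -0.25.

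Between the edited lines, 4 members differed. Called higher in N1OE were 2 of 79 nuclear members, both small subunits of complex III, and called lower 2 of 12 mitochondrial ones, where 7.35% of all genes were called, 2.92% higher and 4.43% lower. The nuclear share lies under that background, and the mitochondrial sums overlapped, at 2858 to 11469 CPM in N1OE and 6849 to 13588 CPM in N1KO. Uqcr11 held 132, 70.8, 79.9 and 111 CPM in N1OE and 41.4, 22.8 and 13.9 CPM in N1KO. Every N1OE library lay above every N1KO library (2.02 ± 0.50, adjusted p = 0.0169). Uqcrq held 171, 95.6, 92.9 and 163 CPM against 88.9, 42.8 and 27.9 CPM, also apart (1.41 ± 0.39, adjusted p = 0.0294). mt-Nd2 held 24.6, 34.8, 66.2 and 107 CPM in N1OE and 203, 462 and 296 CPM in N1KO, with all N1OE libraries lower (-2.61 ± 0.74, adjusted p = 0.0349). mt-Atp6, of uncertain origin, followed (-2.74 ± 0.70, adjusted p = 0.0192), and mt-Nd1 did not pass although its groups did not overlap (-2.51 ± 0.79, adjusted p = 0.0577). The medians were 0.48 over nuclear members, -1.40 over mitochondrial members and 0.07 over all genes, and median ratio scaling shifted the last by -0.11 with no called member changing sign.

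The same libraries differed in their low counts: the number of genes with 1 read over that with 2 reads was 4.18 to 6.82 in N1OE and 1.25 to 1.40 in N1KO (the marked controls lay with N1OE and the unmarked with N1KO). The median over mitochondrial members was -1.70 for marked against unmarked controls beside -1.40 here, so the genotype and this split cannot be told apart. Of 5 fibro-adipogenic markers 2 were called lower in N1OE, Ly6a and Col1a1, and all 5 had negative estimates, with sums of 707 to 2016 CPM in N1OE and 11996 to 37771 in N1KO. Of 5 macrophage markers 1 was called lower, Cd68, with sums of 22.8 to 117 against 147 to 508 CPM, and of 8 satellite cell markers 1 was higher, Calcr, with sums of 1984 to 2811 against 1181 to 2146 CPM. Their part in the members' values was not tested. None of the 4 calls stayed without N1KO replicate 2 or 3. There was 1 call without N1OE replicate 1, 2 without N1OE replicate 2, 7 without control replicate 3, which enters the shared spread, and 8 without N1KO replicate 1.

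The effect of NICD1 overexpression was also compared between settings in 1 fit of all 5 groups. Of the members only Cox6a2 differed, with an effect in re-isolated cells minus that in culture of 4.28 ± 1.18, adjusted p = 0.0429, where 3.27% of all genes were called, 2.36% higher and 0.91% lower. In culture N1OE held 0, 0 and 0.102 CPM against 1.42, 7.07, 0.789 and 6.72 CPM in controls, whereas after re-isolation N1OE held 8.06, 2.63, 15.1 and 5.65 CPM against a lowest of 2.73, a median of 14.8 and a highest of 40.6 CPM. Markers of differentiated muscle moved the same way: 2 of 11 were called higher, Myl1 (4.76, adjusted p = 0.0075) and Acta1 (4.61, adjusted p = 0.0178), all 11 had positive estimates with a median of 3.48, and 9 were higher at an unadjusted p under 0.05. Their part in the difference was not tested. The difference depended on the treatment of values near 0: with 1 CPM added before taking logs it was 1.15 with an adjusted p of 0.639. The call was lost without any 1 of 12 libraries: cultured control replicate 2 or 4, cultured N1OE replicate 1, 2 or 3, re-isolated control replicate 1, 4 or 9, re-isolated N1OE replicate 1, 3 or 4, or N1KO replicate 1, with adjusted p from 0.0506 to 0.133. The median difference was -0.59 over nuclear members, with 70 of 79 negative, -0.90 over mitochondrial members and 0.04 over all genes.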

How the data were processed

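RNA-seq of 23 libraries was used as a single table of log2 CPM values per gene that the authors deposited. Per the submitters' processing notes, the tools were Trimmomatic 0.33, FastQC, featureCounts and edgeR with the mm10 build; the aligner is not given in the sources used here. In the deposited table a gene without reads stands at a log2 CPM of -4.19, and subtracting the constant of 0.0548 CPM this implies turned 100% of values into whole read counts within 0.05 reads, so depth and linear CPM were recovered for every library. Whether those reads were adjusted before deposit is not given. All 23 columns of values were matched to samples by name, and 0 were left out. No replicates were duplicates: the chi-square per degree of freedom between libraries of a group was at least 3.31. That lowest value was between cultured N1OE replicates 2 and 3, and every other pair lay at 29.7 to 712. These replicates were thus much closer than any other pair, and whether they are independent is not given.

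Differences were tested with limma 3.58.1 in R 4.3.3 (lmFit, eBayes with trend, two-sided) on the deposited log2 values, on genes that reached 1 CPM in 3 or more of the fitted libraries, with Benjamini-Hochberg adjustment over all tested genes and a threshold of 0.05. Fold changes are thus on the log2(CPM + 0.0548) scale, which understates changes of low genes; errors beside them are standard errors. A fit held the cultured groups, another the 3 re-isolated groups, and a further one the re-isolated libraries with the controls in sets by header suffix. The method was tested on simulated counts with a fixed spread and without outlying libraries or control sets. That test does not give error rates for the more variable re-isolated groups. Sums, levels and lists were described without tests. The numbers shared by replicates of different groups do not pair libraries (the correlations of deviations ranged from -0.16 to 0.47), so no block was used.

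Members and lists were chosen with earlier results of these data known. Named were all mitochondrial members, the complex IV isoforms and their partners, 7 core subunits, and per comparison and direction up to 6 nuclear members with the smallest adjusted p (3 where fewer than 3 passed). Transcript lengths came from GENCODE M21 (21110 of 21264 genes matched), nuclear copies from BLAST 2.17.0 against its transcripts, and promoters from RefSeq for GRCm38.p6. Tables were handled in Python 3.11.15 with numpy 2.4.6 and pandas 2.3.3. Alternatives were pseudocounts of 1 and 5 CPM, no filter, a filter of 5 CPM, median ratio scaling, totals without mitochondrial genes, array weights, a replicate block, limma-voom on recovered reads, the compared groups alone, control sets by sample description, and each library left out in turn.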

Additional observations from a re-analysis of the deposited data

Results flagged for a closer look

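Gaps between a group's extreme library and its nearest neighbour were examined for some of the members and for sums of members, in groups of 4 to 10 libraries. The tests did not cover all 95 members, so a member not listed here was not necessarily examined. Of 111 such tests 15 exceeded the critical gap at the 95% level; chance alone gives about 1 in 20. Replicate 2 of the re-isolated controls stood alone at the top for the mitochondrial sum (20347 CPM), mt-Nd1 (4884.5 CPM), mt-Co1 (6618 CPM), mt-Nd5 (851 CPM), mt-Atp6 (73.6 CPM), mt-Nd3 (0.246 CPM) and the nuclear gene Cox7b (169.9 CPM). Replicate 1 of the cultured controls stood alone for the mitochondrial sum (38582 CPM), and replicate 4 for a low mt-Atp8 (0.238 CPM). Other re-isolated controls stood alone at the top for Cox6b2 (replicate 6, 4.28 CPM), Cox7b2 (replicate 9, 0.472 CPM) and Cox5a (replicate 5, 133 CPM). Among re-isolated N1OE libraries, replicate 4 stood alone at the top for Ndufa4 (91.1 CPM) and Cox7a1 (5.50 CPM), and replicate 1 for Cox5a (71.8 CPM), the gene called lower in that group. The effect of NICD1 overexpression differed between settings for Cox6a2, by 4.28 on the log2 scale.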

How the results depend on the processing

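Across members called in any comparison and all alternatives, 6553 of the recomputed values kept their direction and side of the threshold, 986 kept their direction and lost the call, and none reversed. Each library left out in turn gave these ranges of called members: 0 to 2 for cultured N1OE, 0 to 7 for re-isolated N1OE, 0 to 15 for N1KO, 0 to 8 between N1OE and N1KO, 16 to 27 between the control sets, 2 to 10 and 19 to 37 for N1OE against marked and unmarked controls, 10 to 34 and 9 to 29 for N1KO against them, 44 to 54 for re-isolated against cultured controls, 51 to 63 and 46 to 56 with marked and unmarked controls alone, and 0 to 2 for the difference between settings. The ratio of mitochondrial to nuclear sums ranged from 2.62 to 2.81 in cultured controls, 2.49 to 2.63 in cultured N1OE, 0.700 to 0.862 in re-isolated controls, 0.546 to 0.725 in marked and 0.784 to 1.12 in unmarked controls, 0.563 to 0.850 in N1OE and 1.32 to 2.0 in N1KO. Taken instead as the ratio of medians, it was 9.29 in cultured controls, 8.27 in cultured N1OE and 0.262 in marked controls, and without the most abundant member of each genome it was 2.04 in cultured controls and 1.84 in cultured N1OE.

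For other settings the cause of each change was not tested. In cultured N1OE the 2 calls became 1 with a pseudocount of 1 CPM, 0 with 5 CPM, 0 with a filter of 5 CPM, 0 with limma-voom (which called 956 of all genes) and 11 with array weights. With array weights there were 7 calls for re-isolated N1OE, 21 for N1KO, 8 between N1OE and N1KO, 36 between control sets and 14 for the difference between settings. Limma-voom gave 1 for re-isolated N1OE and 0 for the difference between settings, which was also 0 with either pseudocount, no filter or median ratio scaling. With the compared groups alone there were 2 calls for N1KO, 8 between N1OE and N1KO, and 21 and 17 for N1KO against marked and unmarked controls. With control sets by description there were 0 between the sets, 1 and 12 for N1OE and 6 and 7 for N1KO against them. Without a filter N1OE against marked controls gave 5.

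With a replicate block, which rests on shared numbers that do not pair the libraries, cultured N1OE kept 2 calls, N1OE against N1KO 4 and re-isolated against cultured controls 37. With the block there were 0 for re-isolated N1OE, 0 for N1KO, 4 between control sets, 2 and 15 for N1OE and 1 and 11 for N1KO against marked and unmarked controls, 21 and 24 for these sets against cultured controls, and 0 for the difference between settings. Depth limits members near 1 read, such as Cox6a2 in cultured N1OE, and the near-identical copies limit 5 mitochondrial members at any depth.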
